A study of Homo sapiens with 4 samples.

Results

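The 9 genes described here encode surface proteins and regulators used to recognise stem-like cells of the colon and of colon cancers: *CD44*, *EPCAM*, *PROM1*, *ALCAM*, *CD24*, *LGR5*, *ASCL2*, *ALDH1A1* and *BMI1*. They were taken by name, with earlier results of these data known, and 15 of the 47321 probes on the array belong to them. Of these 15 probes, 12 probes of 7 genes gave a signal on at least 2 of the 4 arrays and were compared. Expression was measured in 2 samples of HCT116-WT and 2 of HCT116-MT, untreated cells of the human colorectal cancer line HCT116 grown in RPMI medium with serum, with 1 Illumina HumanHT-12 v4 BeadChip array per sample. Each line keeps a single allele of *CTNNB1*, which encodes β-catenin, because the other allele was disrupted in the parental cells: the remaining allele is wild-type in HCT116-WT and mutant in HCT116-MT. The parental cells with both alleles were not analysed here. Neither the labels nor the methods state if each line is 1 clone, or if its 2 samples were grown as separate cultures, so p-values reflect the spread among these arrays alone, and that spread may be technical. Differences tied to the allele and other differences between the 2 lines cannot be told apart.

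In the normal colon, stem cells at the base of the crypt renew the epithelium under WNT signaling, in which β-catenin enters the nucleus and works with TCF/LEF factors on target genes. *LGR5* and *ASCL2* are targets of this pathway and mark those crypt base cells, and *CD44* is a target as well. In tumors, *CD44*, *EPCAM*, *PROM1* (CD133), *ALCAM* (CD166) and *CD24* are surface proteins with which cells able to seed new tumors have been sorted, *ALDH1A1* is an aldehyde dehydrogenase whose activity is used in the same way, and *BMI1* is a Polycomb subunit linked to self-renewal. Most of these surface proteins are also present on ordinary epithelial cells.

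Detection was similar on the 4 arrays, with 19604 to 20101 probes above the negative controls (detection p under 0.05). The arrays correlated at 0.965 within HCT116-WT, at 0.980 within HCT116-MT and at 0.964 to 0.969 between the lines. The 2 HCT116-WT arrays were thus no more alike than arrays of different lines. Replicate 1 of HCT116-WT had the highest mean intensity, 767 against 637 to 690 on the other arrays. Intensities are given as deposited, in the order of replicates 1 and 2, while log2 fold changes, HCT116-MT minus HCT116-WT, come from quantile-normalized values, which have the same distribution on each array, fitted with limma. The *CTNNB1* probe ILMN_1746396 read 2555 and 1761 on the HCT116-WT arrays, against 2893 and 2001 for HCT116-MT (log2 fold change of 0.29 with SE 0.20, limma adjusted p = 0.745), and this does not check the labels, since the array does not tell the alleles apart. Of 5 epithelial markers, *KRT18* was not detected on any array with its 2 probes, which does not show that its transcript was absent. *KRT8*, *KRT19*, *CDH1* and *CLDN4* were detected in both lines. The summed intensity of these 4 was 14335 and 13774 on the HCT116-WT arrays, against 9204 and 8203 for HCT116-MT. Of 15 markers of fibroblasts, leukocytes and endothelium 14 had a probe, 5 were detected on at least 2 arrays, and 0 of those were past the thresholds below. Their summed intensity was 940 to 1067 in HCT116-WT and 875 to 959 in HCT116-MT. *PTPRC*, *CD3E*, *PECAM1*, *CDH5*, *COL1A2* and *COL3A1* were not detected.

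*PROM1*, *CD44* and *EPCAM* held every marker probe that passed, each lower in HCT116-MT. The compared probes of *ALCAM*, *CD24* and *ALDH1A1* also had the lower mean in HCT116-MT, that of *BMI1* the higher. For *ALDH1A1* the difference was only -0.03 on the log2 scale. The study thresholds were a fold change over 1.5 together with p under 0.05 before adjustment. By these, 5 of the 12 probes were lower in HCT116-MT and 0 were higher, against 3.10% of all 20579 compared probes that were lower and 3.15% that were higher. The 5 were 2 of the 3 *CD44* probes, 2 of the 3 *EPCAM* probes and the *PROM1* probe. With Benjamini-Hochberg adjustment over all compared probes limma called 0 of the 12 at adjusted p under 0.05 (smallest 0.216), where it called 0.00972% of all probes lower and 0.00% higher. Of the 12 probes, 6 had an unadjusted limma p under 0.05, against 1943 of all 20579 compared probes. These 6 belong to *CD44*, *EPCAM* and *PROM1*. Student's t-test and limma with a mean-variance trend also called 0 of the 12 after adjustment. The normalized values of the 2 lines did not overlap for 9 probes that were lower and 1 that was higher in HCT116-MT, where 16.9% and 22.3% of all probes separated in these directions. The 9 include every *CD44* and *EPCAM* probe. They also include *CD24* probe ILMN_1805519 near the detection limit, which differed by only -0.05 on the log2 scale. The median difference was -0.76 on the log2 scale over the 12 probes and 0.016 over all compared probes. With replicate 1 of HCT116-WT left out 1 probe was lower and 1 higher at the thresholds, and with replicate 1 of HCT116-MT left out 3 were lower. Leaving out an array also leaves less data to estimate the spread, so a call lost this way need not mean a smaller difference. The genes were chosen with earlier results of these data known, so these counts are not an independent test. Probes of 1 gene share their target and are not separate genes. Among the 12 probes, 2 (*PROM1* and *CD44* probe ILMN_1778625) were detected in HCT116-WT alone. They were compared only through the line in which they were higher, so they could not count as higher in HCT116-MT. In RNA of whole cultures, fewer cells with a marker and less RNA per cell cannot be told apart.

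**Figure D1:**
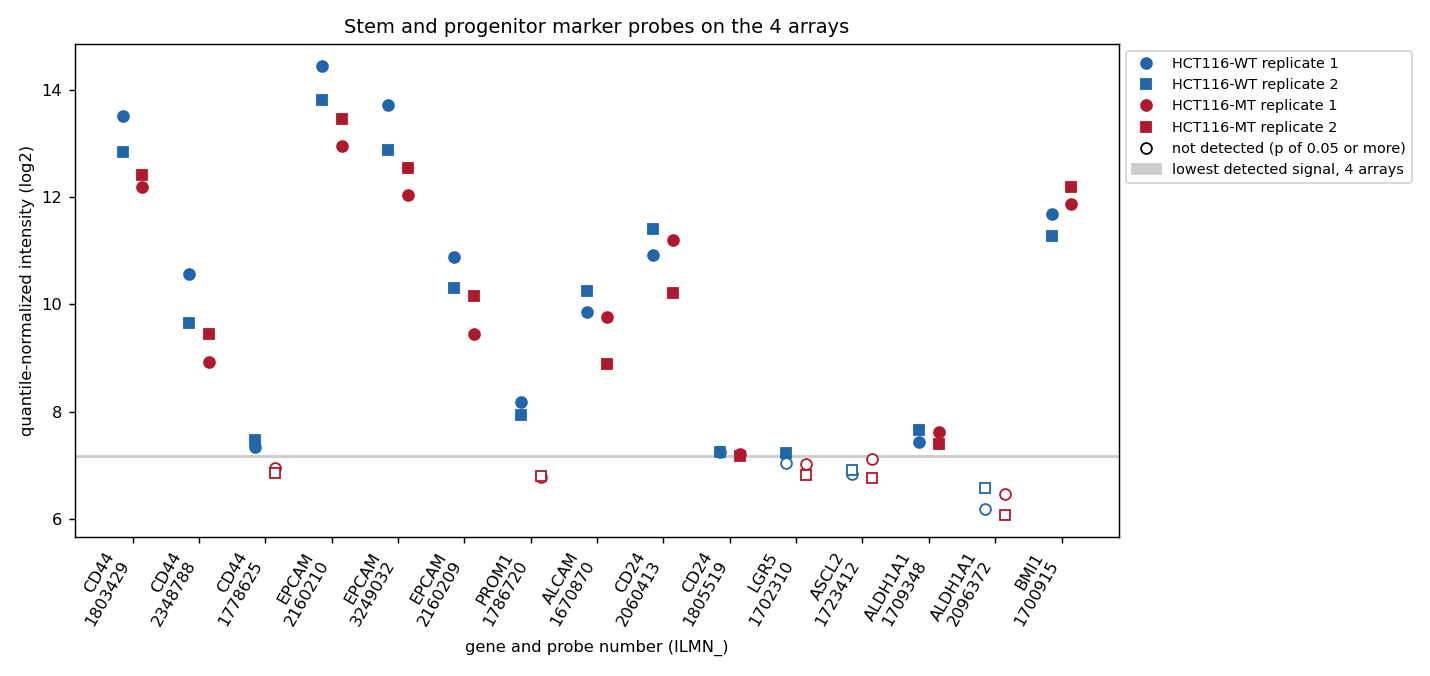
Quantile-normalized log2 intensity (vertical axis) of the 15 marker probes (horizontal axis) on each of the 4 arrays, with open symbols where the probe was not detected and a grey band at the lowest detected signal. *CD44*, *EPCAM* and *PROM1* have both HCT116-WT points above both HCT116-MT points in each of their 7 probes, and heights are not comparable between probes.

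*CD44* is a transmembrane receptor for hyaluronan that is made in many splice forms. The probe ILMN_1803429, annotated to NM_001001391, had intensities of 12847 and 6789 in replicates 1 and 2 of HCT116-WT, and of 4758 and 5072 in replicates 1 and 2 of HCT116-MT. Replicate 1 of HCT116-WT stood well above the other 3 arrays, and the lines did not overlap. The log2 fold change was -0.88 (SE 0.27, 95% interval -1.55 to -0.21, adjusted p = 0.442 with limma), a 1.84-fold lower level in HCT116-MT that was past the study thresholds. On the normalized log2 scale the samples differed by 0.67 within HCT116-WT and by 0.23 within HCT116-MT. Single arrays moved the value: the log2 fold change was -0.54, short of the fold threshold, when replicate 1 of HCT116-WT was left out. The log2 fold change was -0.77, past the fold threshold, when replicate 1 of HCT116-MT was left out.

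The probe ILMN_2348788, annotated to NM_001001392, was the other *CD44* probe past the study thresholds. It read 1829 and 741 on the HCT116-WT arrays, against 480.4 and 625 for HCT116-MT. Replicate 1 of HCT116-WT was again the highest, and the lines did not overlap. The log2 fold change was -0.92 (SE 0.35, 95% interval -1.80 to -0.05, adjusted p = 0.514 with limma). It was -0.47, short of the fold threshold, when replicate 1 of HCT116-WT was left out. It was -0.66, past the fold threshold, when replicate 1 of HCT116-MT was left out. With the replicate number as a block the value stayed at -0.92 and no longer passed (adjusted p = 0.565 with limma).

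The third *CD44* probe, ILMN_1778625, annotated to NM_000610, was close to the detection limit. It read 179 and 172 on the HCT116-WT arrays, against 124 and 112 for HCT116-MT, with detection p-values of 0.0195 and 0.0104 against 0.145 and 0.239. Both HCT116-WT arrays were above the limit and both HCT116-MT arrays below it, so the HCT116-MT level has only a bound. Set against the lowest detected signal of each HCT116-MT array, the level was at least 1.18-fold lower there. The fitted difference, -0.50 (SE of 0.17, limma adjusted p = 0.467), did not reach the fold threshold. The 3 probes are annotated to different records of *CD44*, but their levels cannot be set against each other, and whether splice forms changed was not tested.

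The 250 bases before the annotated start of *CD44* are shown because 2 of its probes were lower in HCT116-MT and because the gene is a known target of β-catenin and TCF/LEF. The window is chr11:35138921-35139170 of GRCh38.p14 on the plus strand, from RefSeq. It was searched on both strands for CTTTGAA, which TCF/LEF factors bind, and its forms CTTTGAT as well as CTTTGTT along with CTTTGTA. The E-box CAGGTG, the site bound by ZEB and SNAI repressors, was searched alike. The window holds none of these, so that no base is in capitals.
CD44: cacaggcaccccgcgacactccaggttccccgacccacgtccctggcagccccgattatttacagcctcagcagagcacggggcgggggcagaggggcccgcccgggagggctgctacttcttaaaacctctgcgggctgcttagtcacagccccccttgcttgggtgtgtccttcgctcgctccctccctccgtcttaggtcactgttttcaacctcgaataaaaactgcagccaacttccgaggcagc

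*EPCAM* encodes an epithelial adhesion molecule that is also cleaved to release a signaling fragment. The brightest of its 3 probes, ILMN_2160210, read 23136 and 13959.7 on the HCT116-WT arrays, against 8001 and 10668 for HCT116-MT. Both HCT116-WT arrays were above both HCT116-MT arrays, and replicate 1 of HCT116-WT was again the highest. The log2 fold change was -0.92 (SE 0.29, 95% interval -1.65 to -0.20, adjusted p = 0.449 with limma). The probe ILMN_3249032 read 14523 and 6924 on the HCT116-WT arrays, against 4287 and 5525 for HCT116-MT, with no overlap. Its log2 fold change was -1.01 (SE 0.34, 95% interval -1.85 to -0.18, adjusted p = 0.464 with limma), a 2.02-fold lower level. Both probes were past the study thresholds. Neither passed without replicate 1 of HCT116-WT (-0.64 and -0.59) or without replicate 1 of HCT116-MT (-0.67 and -0.76), nor with Student's t-test.

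The remaining *EPCAM* probe, ILMN_2160209, read 2275 and 1138 on the HCT116-WT arrays, against 693 and 1034 for HCT116-MT. The lines did not overlap, although replicate 2 of each line lay close to the other. The log2 fold change of -0.79 (SE 0.32, 95% interval -1.59 to 0.01, adjusted p = 0.534 with limma) missed the thresholds by its unadjusted p, 0.0519. It passed with replicate 2 of HCT116-MT left out (-1.14) or replicate 2 of HCT116-WT (-1.09), and was -0.43 without replicate 1 of HCT116-MT. Of the 4 epithelial markers compared, 1 passed: *CDH1*, the adhesion protein E-cadherin, was lower, with 2653 and 1722 on the HCT116-WT arrays, against 636 and 424 for HCT116-MT (log2 fold change of -1.91 with SE 0.22, limma adjusted p = 0.153). The keratins *KRT8* and *KRT19* had log2 fold changes of -0.35 and -0.60 and the tight junction protein *CLDN4* 0.025, and none of these passed. The part of a difference in epithelial genes in the *EPCAM* values was not tested.

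*PROM1* encodes prominin-1, a membrane protein of cell protrusions and the antigen known as CD133. Its probe ILMN_1786720 read 339 and 236 on the HCT116-WT arrays, against 109 and 108 for HCT116-MT. It was detected on both arrays of HCT116-WT and on neither of HCT116-MT, with detection p-values of 0.336 and 0.294 there. The level in HCT116-MT was at least 1.86-fold lower, taken against the lowest detected signal of each HCT116-MT array (fitted log2 fold change of -1.27 with SE 0.18, limma adjusted p = 0.216). The fitted value was past the study thresholds with each array left out in turn (-1.41 to -1.10) and moved to -2.31 with neqc background correction. Because both HCT116-MT values lay below the detection limit, at 6.77 and 6.80 on the normalized log2 scale, their small spread is that of background signal, and these fits cannot be set against those of probes detected in both lines.

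Over the 4 arrays the genes whose centred log2 values lay nearest to those of *PROM1*, by Euclidean distance among 11875 genes, were *ALOX12B*, a lipoxygenase of the skin barrier (distance 0.110), *FTH1P3*, a ferritin heavy chain pseudogene (0.127), *CCN3*, a secreted matricellular protein (0.135), *REC8*, a meiotic cohesin subunit (0.142), and *RAB25*, a small GTPase of epithelial cells (0.151). *RAB25* read 2039 and 1275 on the HCT116-WT arrays, against 634 and 658 for HCT116-MT. *CCN3* read 515 and 311 on the HCT116-WT arrays, against 148 and 139.7 for HCT116-MT. Signal of *FTH1P3* is uncertain, because ferritin heavy chain has many near-identical copies. With 4 arrays in 2 lines, any gene with a similar step between the lines comes close, and the *PROM1* values of HCT116-MT lie below the detection limit.

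The 250 bases before the most upstream annotated start of *PROM1* are shown because its probe passed the study thresholds and its window holds an E-box, in capitals, 103 bases before the start. The window is chr4:16084024-16084273 of GRCh38.p14 on the minus strand, from RefSeq, printed 5′ to 3′ along the gene.
PROM1: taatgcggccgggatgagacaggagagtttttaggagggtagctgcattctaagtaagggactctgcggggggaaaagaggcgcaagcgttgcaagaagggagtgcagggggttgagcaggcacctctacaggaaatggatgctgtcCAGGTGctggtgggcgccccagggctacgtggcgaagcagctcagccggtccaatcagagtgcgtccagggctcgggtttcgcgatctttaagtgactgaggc

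RefSeq windows were at hand for 6 of the 9 genes. With 1 window per gene, the most upstream, the E-box was found in 2 of the 6 (*PROM1*, and *ALCAM* at 109 bases before the start) and a TCF/LEF motif in 1 of the 6 (*ALDH1A1*). Among 35116 windows of the same length over all genes, 17.5% held the E-box and 12% a TCF/LEF motif. Those windows count every annotated start of a gene, unlike the 6. Among the windows at other annotated starts, each motif was found for *PROM1* and for *CD24*. These matches describe letters and not sites in use.

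*ALCAM* encodes an adhesion molecule of the immunoglobulin family. Its probe ILMN_1670870 read 1131 and 1099.7 on the HCT116-WT arrays, against 874 and 427 for HCT116-MT. The lines did not overlap, but replicate 2 of HCT116-MT lay far below replicate 1. Its log2 fold change was -0.73 (SE 0.33, 95% interval -1.54 to 0.09, adjusted p = 0.594 with limma) and did not pass. It was -1.16 and passed without replicate 1 of HCT116-MT, and -0.29 without replicate 2.

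*CD24* encodes a small, heavily glycosylated surface protein. Its probe ILMN_2060413 read 2315 and 2445 on the HCT116-WT arrays, against 2407 and 1069 for HCT116-MT. The lines overlapped, since only replicate 2 of HCT116-MT was low. The log2 fold change was -0.45 (SE 0.37, 95% interval -1.37 to 0.46, adjusted p = 0.783 with limma). Its sign rested on that array, with 0.039 without replicate 2 of HCT116-MT and -0.95, which passed, without replicate 1. The probe ILMN_1805519 lay near the detection limit, at 164 and 148 on the HCT116-WT arrays, against 149 and 137 for HCT116-MT (log2 fold change of -0.05 with SE 0.17, limma adjusted p = 0.969). *CD24* has near-identical copies in the genome, so its signal is uncertain.

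**Figure D2:**
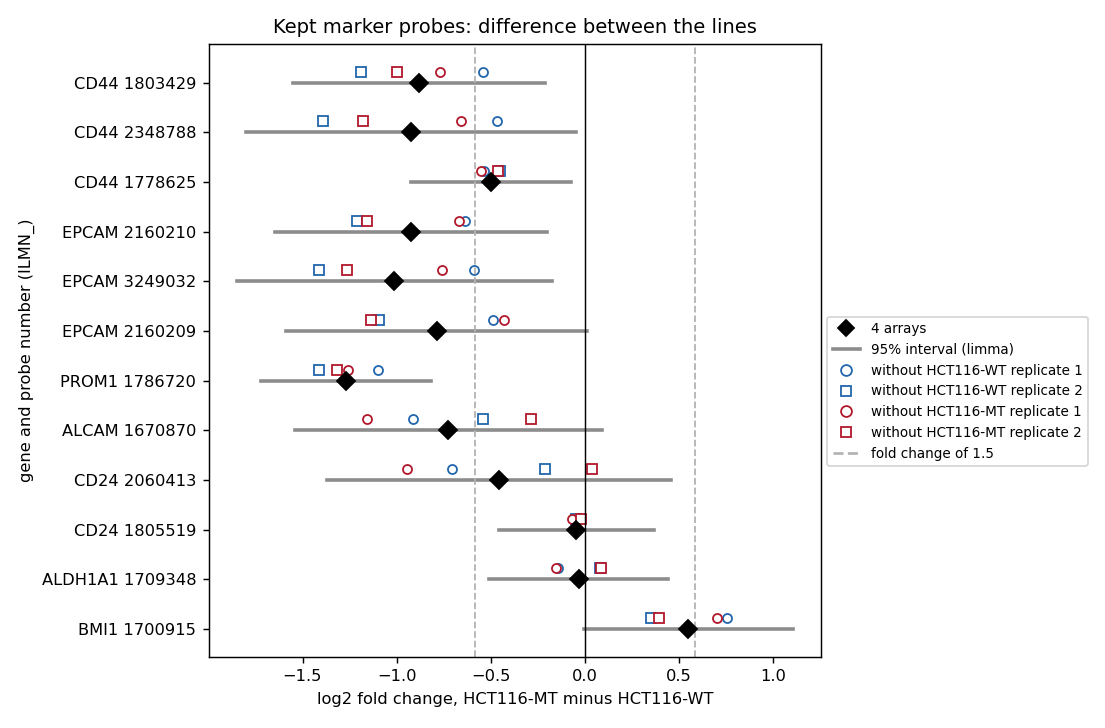
Log2 fold change of each of the 12 compared marker probes, HCT116-MT minus HCT116-WT (horizontal axis), with its 95% interval from limma and the values with each array left out. The 5 probes past the study thresholds lie between -1.27 and -0.88, and the leave-one-out values of *PROM1* stay between -1.41 and -1.10 while those of *CD24* probe ILMN_2060413 run from -0.95 to 0.039.

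Among the marker genes, *LGR5* and *ASCL2* of the crypt base were at or below the detection limit in both lines. *LGR5*, the R-spondin receptor of crypt base stem cells, read 140 and 147 on the HCT116-WT arrays, against 130.5 and 109 for HCT116-MT with its probe ILMN_1702310. Only replicate 2 of HCT116-WT was above the negative controls, so the probe was not compared (without the detection filter its fitted value was -0.21, not past the thresholds). *ASCL2*, the transcription factor of the same cells, read 119.9 and 119 on the HCT116-WT arrays, against 139 and 105 for HCT116-MT with its probe ILMN_1723412 and was detected on none of the 4 arrays (0.070 without the detection filter, not past the thresholds). A difference in either gene was not detectable at this signal, which does not show that the transcripts were absent.

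The intracellular markers did not pass in either direction. *ALDH1A1*, which oxidises retinal and other aldehydes, was near the detection limit: its probe ILMN_1709348 read 189.9 and 195 on the HCT116-WT arrays, against 195 and 157 for HCT116-MT. The lines overlapped, and the log2 fold change was -0.03 (SE 0.19, 95% interval -0.51 to 0.44, adjusted p = 0.983 with limma). It turned to 0.083 without replicate 2 of HCT116-MT and to 0.081 without replicate 2 of HCT116-WT. The other *ALDH1A1* probe, ILMN_2096372, was not detected on any array.

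Of the 12 compared probes, that of *BMI1* was the only one with the higher mean in HCT116-MT. Its probe ILMN_1700915 read 3844 and 2226 on the HCT116-WT arrays, against 3817 and 4353 for HCT116-MT. After normalization the lines did not overlap, with replicate 2 of HCT116-WT the lowest. Its log2 fold change was 0.55 (SE 0.22, 95% interval -0.01 to 1.10, adjusted p = 0.533 with limma) and did not pass. It was 0.75 and passed without replicate 1 of HCT116-WT, and it was 0.35 with replicate 2 of that line left out.

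Among further stem cell genes of the crypt base, more were higher than lower in HCT116-MT. This list and those below were chosen with earlier results of these data known, so their counts are not an independent test. Of 20 genes in this list 19 had a probe and 13 were compared, and 4 rose and 1 fell in HCT116-MT at the study thresholds, against 3.48% of all 11875 genes that rose and 3.86% that fell. The list had a median log2 fold change of 0.22, against -0.000455 over all genes. *SOX4*, a transcription factor of progenitor cells, read 329 and 433 on the HCT116-WT arrays, against 2866 and 1512 for HCT116-MT, and rose by 2.57 on the log2 scale (SE of 0.35, limma adjusted p = 0.200). *AXIN2*, a feedback inhibitor and direct target of the WNT pathway, read 359 and 497 on the HCT116-WT arrays, against 1167 and 791 for HCT116-MT (log2 fold change of 1.32 with SE 0.31, limma adjusted p = 0.398). Both had each HCT116-MT array above each HCT116-WT array and passed with each array left out. Across the list 2 rose and 0 fell without replicate 2 of HCT116-MT. The counts were 5 and 0 with replicate 2 of HCT116-WT left out, and 3 and 2 with its replicate 1 left out. Student's t-test left 2 that rose and 0 that fell, without *AXIN2*, and 2 rose and 1 fell without normalization.

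*CDK6*, a kinase of the G1 phase of the cell cycle, was higher by 0.76 (SE of 0.20, limma adjusted p = 0.415) and *NKD1*, another WNT feedback inhibitor, by 0.60 (SE of 0.17, limma adjusted p = 0.421). Without replicate 2 of HCT116-MT *CDK6* did not pass (0.68), and with 1 array left out *NKD1* passed only without replicate 2 of HCT116-WT (0.64). *NKD1* also lost its call with median scaling (0.56) and without normalization (0.50), and *CDK6* lost it without normalization (0.61) and with Student's t-test. *SOX9*, a transcription factor of crypt progenitors, was the gene that fell, with 3020 and 2657 on the HCT116-WT arrays, against 1905 and 1128 for HCT116-MT (log2 fold change of -0.84 with SE 0.25, limma adjusted p = 0.434). It did not pass without replicate 2 of HCT116-MT (-0.54) or without replicate 2 of HCT116-WT (-0.74), nor with Student's t-test. *SMOC2*, *OLFM4*, *RNF43*, *PTPRO* and *HOPX* had probes but were not detected on any array.

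Of 18 other surface markers of colon cancer stem cells 12 were compared, and 0 rose and 1 fell (list median -0.21). Over all 11875 genes 3.48% rose and 3.86% fell, with a median of -0.000455. *MET*, the receptor of hepatocyte growth factor, read 1403 and 804 on the HCT116-WT arrays, against 522 and 589 for HCT116-MT (log2 fold change of -0.77 with SE 0.22, limma adjusted p = 0.430). Replicate 1 of HCT116-WT was the highest, as for *CD44* and *EPCAM*. *MET* did not pass without it (-0.57) or without replicate 1 of HCT116-MT (-0.61), nor with Student's t-test. Without replicate 2 of HCT116-MT, and with neqc, 1 listed gene rose. The chemokine receptor *CXCR4*, the efflux pumps *ABCG2* and *ABCB5*, *THY1*, *KIT* and *CEACAM6* were not detected on any array.

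Among 23 relatives and partners of the markers, 18 had a probe and 13 were compared. Of these 13, 1 rose and 2 fell (median log2 fold change -0.17), where 3.48% of all genes rose and 3.86% fell. *PROM2*, *BCAM* and *ALDH1A2* were detected in HCT116-WT alone, so they could not count as higher in HCT116-MT. With detection p under 0.01 the list median was -0.0155. *PROM2*, the paralogue of *PROM1*, read 172 and 183 on the HCT116-WT arrays, against 104 and 93.3 for HCT116-MT and, as *PROM1*, was detected only in HCT116-WT. Its level in HCT116-MT was lower by at least 1.20-fold, a bound short of the fold threshold (fitted log2 fold change of -0.78 with SE 0.19, limma adjusted p = 0.396). The aldehyde dehydrogenases went both ways: *ALDH1A3*, a retinal dehydrogenase, read 6483 and 6532 on the HCT116-WT arrays, against 3228 and 3798 for HCT116-MT (log2 fold change of -0.81 with SE 0.22, limma adjusted p = 0.421). In contrast, *ALDH1B1*, a mitochondrial form, rose by 0.67 (SE of 0.22, limma adjusted p = 0.462). *ALDH1A3* did not pass without replicate 1 of HCT116-MT (-0.63), and *ALDH1B1* did not without replicate 2 of HCT116-MT (0.52) or of HCT116-WT (0.48). *ALDH1B1* also lost its call with median scaling (0.58) and without normalization (0.51), and both genes lost theirs with Student's t-test. Over this list 2 rose without replicate 1 of HCT116-MT, 0 rose without replicate 2 of either line, and 3 fell without replicate 1 of HCT116-WT, with neqc, with cyclic loess or without normalization.

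Among 18 ligands, anchors, proteases and splicing regulators of *CD44*, 12 were compared, and 1 rose and 1 fell, where 3.48% of all genes rose and 3.86% fell. The list had a median log2 fold change of 0.04, and of -0.0054 with cyclic loess, -0.010 with median scaling and -0.078 without normalization. *ESRP1*, an epithelial splicing regulator that acts on the variable exons of *CD44*, read 712 and 655 on the HCT116-WT arrays, against 323 and 345 for HCT116-MT (log2 fold change of -0.87 with SE 0.19, limma adjusted p = 0.389). It passed with each array left out. *SPP1*, the *CD44* ligand osteopontin, read 200.02 and 238 on the HCT116-WT arrays, against 368 and 307 for HCT116-MT (log2 fold change of 0.76 with SE 0.22, limma adjusted p = 0.425), and did not pass without replicate 1 of HCT116-WT (0.52) or of HCT116-MT (0.69), nor with Student's t-test. Of the list 2 others rose without replicate 1 of HCT116-WT, and 0 rose without replicate 1 of HCT116-MT.

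Of 20 genes of differentiated colon cells 5 were compared and 0 passed, where 3.48% of all genes rose and 3.86% fell. The list had a median log2 fold change of 0.19, and of -0.035 without the detection filter. *ALPI*, an enterocyte gene, was detected in HCT116-MT alone, so it could not count as lower there. The brightest were *CA2*, a carbonic anhydrase of enterocytes, at 5188 and 3918 on the HCT116-WT arrays, against 7313 and 5611 for HCT116-MT (log2 fold change of 0.58 with SE 0.18, limma adjusted p = 0.446), and *CDX2*, an intestinal transcription factor, at 930 and 536 on the HCT116-WT arrays, against 712 and 730 for HCT116-MT (log2 fold change of 0.19 with SE 0.21, limma adjusted p = 0.849). *FABP1*, *VIL1*, *MUC2* and *TFF3*, markers of mature enterocytes and goblet cells, were not detected on any array. Without replicate 2 of HCT116-MT or without replicate 1 of HCT116-WT 1 of the 5 rose, and 1 fell with replicate 2 of HCT116-WT left out.

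**Figure D3:**
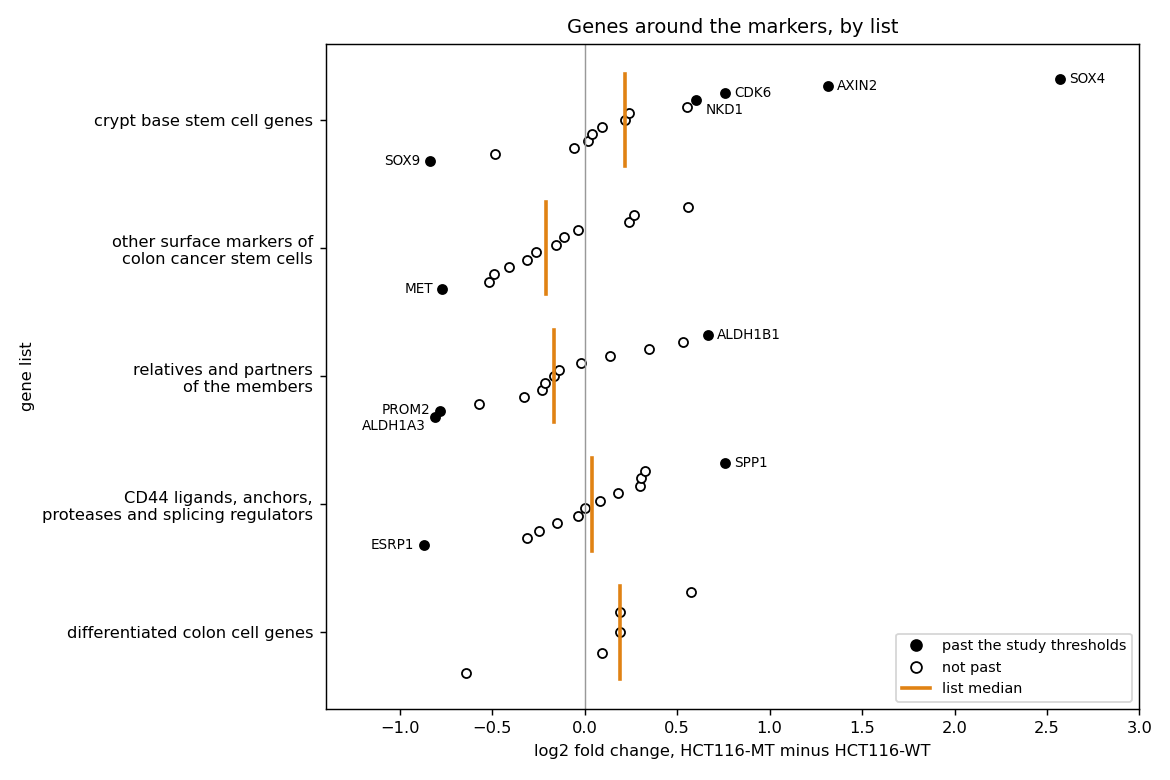
Log2 fold change of each compared gene, HCT116-MT minus HCT116-WT (horizontal axis), in the 5 lists around the markers, with filled points past the study thresholds and an orange bar at the list median. *SOX4* at 2.57 and *AXIN2* at 1.32 lie farthest to the right, and the list medians run from -0.21 to 0.22.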

How the data were processed

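The authors hybridised labelled cRNA, made from total RNA, to HumanHT-12 v4 BeadChips and deposited an intensity for each probe and array, exported from GenomeStudio and not normalized between arrays, with a detection p-value from the negative controls. In a second deposited table, 26122 of 47319 IDs (55.2%) hold other values than the first table gives for the same ID, and it was not used for results. Log2 intensities were quantile-normalized over all probes, and probes with detection p under 0.05 on at least 2 of 4 arrays were compared with limma 3.58.1 in R 4.3.3, with Benjamini-Hochberg adjustment over 20579 probes. The study's integrated statistical method is not described further, so limma stands in for it. The thresholds of p and fold change are those of the methods. A probe undetected in every sample of a line was given a bound against the lowest detected signal. The number of arrays limits the precision.

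The members and gene lists were chosen with earlier results of these data known. Named were all marker probes, up to 4 genes of each list past the study thresholds by largest change (where none passed, the 2 brightest), the 5 genes nearest to the marker with the largest fitted change past the thresholds (*PROM1*, whose value against undetected signal is supported only as a bound, which is smaller than the fold of an *EPCAM* probe), and *CTNNB1*. The brightest probe stood for a listed gene. The markers of epithelial and other cells given beside the results are named besides, as are undetected genes of the lists. Of the probes 30112 had 1 gene symbol in the platform annotation, 8 several and 17201 none. Alternatives were cyclic loess, median scaling, neqc (background correction with offset 16), unnormalized values, other detection filters, Student's t-test, a mean-variance trend, the replicate number as a block, the mean of a gene's probes, and each array left out. The steps were tested on simulated data. Plots were made in Python 3.11.15 with matplotlib 3.10.9.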

Additional observations from a re-analysis of the deposited data

How the results depend on the processing

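With 2 arrays per line, single arrays moved many values, and leaving 1 out also left fewer arrays to estimate the spread. Leaving out each array in turn gave log2 fold changes of -1.19 to -0.54 for *CD44* probe ILMN_1803429 and of -1.39 to -0.47 for ILMN_2348788. For both probes the value nearest to no difference was that without replicate 1 of HCT116-WT. With Student's t-test both kept their values (-0.88 and -0.92) and lost the call. ILMN_2348788 also lost it with median scaling (-1.02), and with neqc ILMN_1778625 passed (-0.998). The number of marker probes past the study thresholds was 1 lower with Student's t-test, and 1 to 6 lower and 0 to 1 higher with 1 array left out. *CD24* probe ILMN_2060413 ran from -0.95 to 0.039 with 1 array left out, positive without replicate 2 of HCT116-MT, and *ALDH1A1* probe ILMN_1709348 from -0.15 to 0.083, positive without replicate 2 of either line. The cause was not tested.

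Over all probes, 254 higher and 231 lower passed with Student's t-test, 401 higher with median scaling, 221 higher and 983 lower with no normalization, and 394 to 1150 higher and 395 to 1262 lower with 1 array left out, against 648 and 637. Higher calls made up 50.4% of all calls, against 40.4% (cyclic loess), 34.7% (median scaling) and 18.4% (no normalization). Without normalization all genes together had a median of -0.12, and relative to it the 12 marker probes ran from -1.26 to 0.60. At adjusted p under 0.05 limma called 2 probes, 7 with cyclic loess or detection p under 0.01, 10 with neqc, 19 with a mean-variance trend, 1 with detection on both arrays of a line, 0 without either HCT116-MT array and 53 without replicate 2 of HCT116-WT.

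The lines share replicate numbers 1 and 2, but deviations of same-numbered samples correlated at 0.0537, so the numbers were not taken as pairs. With the replicate block *CD44* ILMN_2348788 stayed at -0.92 and lost its call, and 0 probes had an adjusted p under 0.05.

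The crypt base list had a median of 0.17 with cyclic loess, 0.13 with median scaling, 0.095 without a detection filter, 0.061 without normalization, 0.095 with the mean of a gene's probes and 0.26 to 0.33 with 1 array left out. Relatives and partners had -0.0155 at detection p under 0.01, -0.25 with median scaling, -0.27 with neqc, -0.080 without a detection filter, -0.32 without normalization and -0.29 to -0.051 with 1 array left out. Without normalization the other surface markers had -0.34 and the *CD44* list -0.078, and without a detection filter the differentiated list had -0.035. Probes near the detection limit (*LGR5*, *ASCL2*, *ALDH1A1* and 1 probe each of *CD44* and *CD24*) carry little information on differences.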

Other observations

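Of the 15 marker probes 3 carry, in the second deposited table, other intensities than those used above. *EPCAM* probe ILMN_2160210 is listed there at 85.1 and 97.5 in HCT116-WT and at 90.4 and 90.6 in HCT116-MT, where the non-normalized table has 13959.7 or more in HCT116-WT and 8001 or more in HCT116-MT. *EPCAM* probe ILMN_2160209 is listed at 983, 751, 937 and 809, in the same order of arrays. *PROM1* probe ILMN_1786720 is listed at 172, 183, 104 and 93.3, which are the values of the *PROM2* probe ILMN_1761946 in the non-normalized table. Over 7315 pairs of probes of the same gene whose IDs differ between the tables, the log2 difference between the lines correlated at r = 0.457 in the non-normalized table and at r = 0.139 in the second one, across probe pairs that are not independent replicates.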
